A study of Mus musculus with 6 samples.

Results

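Succinate dehydrogenase, complex II of the respiratory chain, is built from 4 proteins, and the genes that encode them, Sdha, Sdhb, Sdhc and Sdhd, were taken by symbol from the 26199 genes measured in embryonic mouse hearts. All 4 are nuclear genes, and all 4 were expressed in every library. The enzyme sits in the inner mitochondrial membrane and belongs to both the citric acid cycle and the electron transport chain. It oxidises succinate to fumarate and passes the electrons to ubiquinone. SDHA carries the FAD cofactor and binds succinate, SDHB carries the iron-sulfur clusters that conduct the electrons, and SDHC and SDHD anchor the enzyme in the membrane and form the ubiquinone site. Complexes I, III and IV and the ATP synthase each contain proteins that mitochondrial ribosomes make from mitochondrial DNA, and complex II contains none.

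The hearts came from crosses that delete Mrps5, a protein of the small subunit of the mitochondrial ribosome. The control group was Mrps5 fl/fl (3 libraries) and the mutant group was Mrps5 fl/fl; cTNT-Cre (3 libraries), all collected at embryonic day 12 from littermates. By these labels both groups carried 2 floxed Mrps5 alleles and the mutants alone carried Cre, so the deletion and the presence of Cre cannot be told apart. The legend of the paper's supplementary figure on the embryonic hearts instead writes the mutants as Mrps5 fl/+; cTnT-Cre, while its main text has fl/fl. The sample labels are followed here. Cre was driven by the cardiac troponin T promoter, which acts in cardiomyocytes, while blood, endothelial, epicardial and cushion cells of the same heart keep the gene. Each library was a pool of hearts. Total RNA was depleted of ribosomal RNA and sequenced with strand-specific libraries. Values are FPKM, fragment counts scaled to transcript length and to library size, summed over the transcripts of a gene, so levels of different genes can be compared per length. The number of reads behind them is unknown.

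The targeted gene did not separate the groups. In replicate order Mrps5 was at 9.65, 11.4 and 10.4 FPKM in the controls, against 5.28, 7.41 and 10.4 FPKM in the mutants. The library labelled mutant replicate 3 was within the control range. Transcripts that lack the floxed exon may be counted together with intact ones in this sum, so this level does not show whether the gene was intact, and the main results are given with and without that library. The log2 fold change of Mrps5, mutant over control, was -0.44 (SE 0.19, limma adjusted p = 0.339), and -0.66 without mutant replicate 3 (adjusted p = 0.0693). The log2 profiles of 2 libraries had an r of 0.979 to 0.986 where they shared a group and of 0.972 to 0.980 where they did not. Erythroid marker genes took 12.0% to 13.3% of the summed FPKM in controls. The mutants, in replicate order, had 23.5%, 10.8% and 22.0%. The 14 cardiomyocyte markers, which include Tnnt2, Myh7 and Ttn and were abundant in every library, summed to 12851 to 15377 FPKM in controls and 10332 to 12349 FPKM in mutants.

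The stretches upstream of Sdhd and Sdha are shown because each gene starts next to another gene that runs the opposite way and was measured in the same libraries. Sdhd and Timm8b, which encodes a chaperone of the mitochondrial intermembrane space, start 51 bases apart. Sdha and Ccdc127 start 76 bases apart. The sequences are RefSeq's (GRCm38.p6), 5′ to 3′ on the minus strand, which both complex II genes use, and each ends at the base before the annotated start of the complex II gene. The Sdhd stretch is chr9:50603850-50603930, 81 bases that cover the gap and run into Timm8b. The Sdha stretch is chr13:74350241-74350316, the whole gap. Capitals mark letters of the motif of NRF1, a factor of many mitochondrial genes (GCGCA, then any base, then GCGC), or of the motif of ETS factors such as GABP (CCGGAAG, read on the other strand as CTTCCGG).
Sdhd: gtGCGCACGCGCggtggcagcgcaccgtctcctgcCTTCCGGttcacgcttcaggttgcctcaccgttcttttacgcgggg
Sdha: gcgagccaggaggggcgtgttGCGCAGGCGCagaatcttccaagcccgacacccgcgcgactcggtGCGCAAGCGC

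In the 300 bases around the start, searched on both strands, Sdha held 3 matches to the NRF1 letters and 0 to the ETS letters, Sdhb 0 and 1, and Sdhd 1 and 1. Among 32851 mouse promoters of that length, 4.60% held the NRF1 letters and 8.86% the ETS letters. Promoter sequences were matched for 3 of the 4 subunit genes and are not shown for Sdhc. A match of letters is a description and does not show binding.

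The mRNAs of the catalytic proteins had overlapping values in control and mutant hearts, and those of the membrane anchors had lower means in mutant hearts. Sdha and Sdhb differed by 0.05 and 0.01 on the log2 scale, and Sdhc and Sdhd by -0.22 and -0.35. Sdhd was the only subunit whose mutant values all lay below the control values, and none of the 4 differences passed the adjusted threshold.

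Sdha (ENSMUSG00000021577) encodes the flavoprotein, the subunit with the succinate site. Its level, in replicate order, was 81.5, 86.1 and 97.5 FPKM in controls and 86.1, 94.2 and 93.6 FPKM in mutants. The mutant values lay inside the range of the controls. The control mean was 88.4 ± 8.24 FPKM (SD, n = 3) and the mutant mean 91.3 ± 4.49 FPKM (SD, n = 3). Their log2 fold change was 0.05 (SE 0.09, 95% interval -0.17 to 0.26, limma adjusted p = 0.844), so the data allow a mutant level between 89.1% and 120% of the control level on the scale of FPKM + 1.

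Sdhb (ENSMUSG00000009863) encodes the iron-sulfur protein that links the flavoprotein to the membrane anchors. Controls had 107, 106 and 133 FPKM and mutants 113, 118 and 116 FPKM, in replicate order. The 3 mutant libraries lay between the low pair of controls and control replicate 3, which was the highest of the 6. The control mean was 116 ± 15.4 FPKM (SD, n = 3) and the mutant mean 116 ± 2.22 FPKM (SD, n = 3), with a log2 fold change of 0.01 (SE 0.10, 95% interval -0.23 to 0.25, limma adjusted p = 0.984). The sign of the Sdha and Sdhb values is not settled, since leaving out control replicate 1 turned both negative (-0.0069 and -0.043), as leaving out control replicate 2 (-0.048) or mutant replicate 2 (-0.0060) did for Sdhb. Without mutant replicate 3 they were 0.03 and 0.0071.

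Sdhc (ENSMUSG00000058076) encodes the larger membrane anchor, which shares the heme and the ubiquinone site with SDHD. It was at 32.8, 29.9 and 36.8 FPKM in controls and at 26.5, 28.5 and 30.0 FPKM in mutants. Mutant replicate 3 was just above control replicate 2, and the other mutant libraries were below all controls. Means were 33.2 ± 3.46 FPKM (SD, n = 3) and 28.4 ± 1.74 FPKM (SD, n = 3), and the log2 fold change was -0.22 (SE 0.10, 95% interval -0.44 to 0.01, limma unadjusted p = 0.0583, adjusted p = 0.348). Without control replicate 2 or mutant replicate 3 it was -0.29 or -0.26, the unadjusted p was 0.0294 or 0.0496, and the groups no longer overlapped. Without control replicate 3 or mutant replicate 1 it was weaker, at -0.14 or -0.17, with an unadjusted p of 0.211 or 0.161. Without control replicate 1 or mutant replicate 2 the unadjusted p was 0.105 or 0.0927. With the replicate number added to the limma fit, the unadjusted p of Sdhc was 0.0377 (adjusted p = 0.266). Of the 3 transcripts listed for Sdhc, Sdhc-202 made up 94.4% of the gene's mean FPKM. Taken alone it was at 30.9, 29.3 and 34.8 FPKM in controls and at 24.2, 26.3 and 28.8 FPKM in mutants, and these values did not overlap.

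Sdhd (ENSMUSG00000000171) encodes the smaller membrane anchor. Its level was 116, 117 and 128 FPKM in controls and 84.0, 89.5 and 110 FPKM in mutants. All mutant libraries were below all controls, and mutant replicate 3, whose summed Mrps5 FPKM was within the control range, was the nearest to them. The control mean was 120 ± 6.39 FPKM (SD, n = 3) and the mutant mean 94.6 ± 13.9 FPKM (SD, n = 3), or 78.6% of the control mean. The log2 fold change was -0.35 (SE 0.11, 95% interval -0.61 to -0.09, limma unadjusted p = 0.0140, adjusted p = 0.224), and 7.46% of the genes tested had a lower value. Without mutant replicate 3 it was -0.47 (adjusted p = 0.0607). Without control replicate 3 or mutant replicate 1 it was -0.31 or -0.27, and the unadjusted p was then 0.0506 or 0.0520.

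Of the 4 subunits, 0 had an adjusted p under 0.05 with limma, and 0.0829% of the 13262 genes tested did. At an unadjusted p under 0.05 the count was 1 of 4, against 15.0% of all genes in either direction and 9.43% in the lower direction. Groups did not overlap for 1 of 4, against 20.8% of all genes and 13.0% in the lower direction. With 4 genes, 1 call is not set apart from this background. Cardiomyocyte markers were lower in the mutants by a median of 0.33 on the log2 scale (14 of 14 negative, 9 with an unadjusted p under 0.05), close in size to Sdhd, and the part of this in the Sdhd value was not tested. In bulk tissue, fewer cardiomyocytes and less RNA per cardiomyocyte cannot be told apart. In replicate order the mutants had erythroid shares of 23.5%, 10.8% and 22.0% and Sdhd levels of 84.0, 89.5 and 110 FPKM. The part of erythroid RNA in the Sdhd value was not tested.

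**Figure D1:**
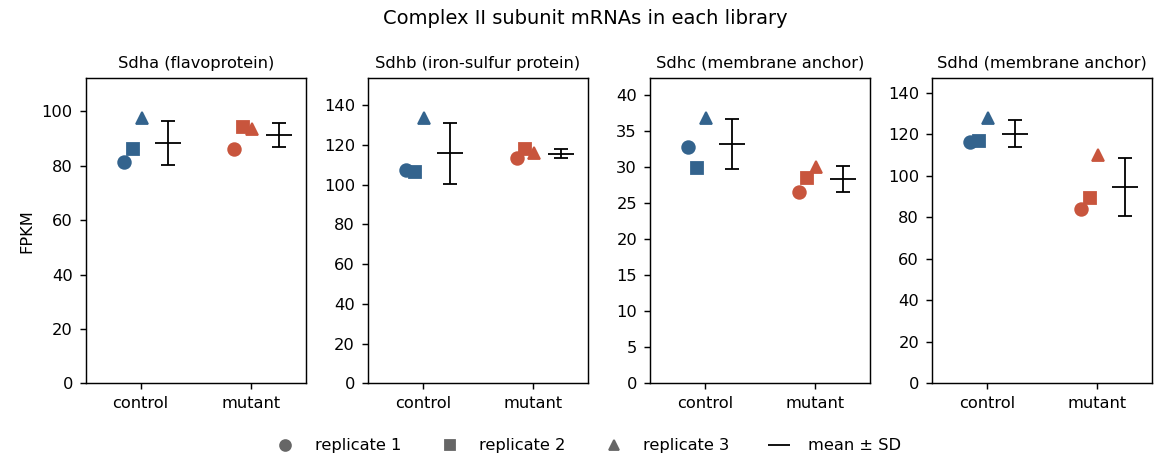
FPKM of the 4 complex II subunit genes (y axes from 0) in 3 control and 3 mutant libraries, with marker shapes for the replicate number and a dash with bars for the mean ± SD of 3 libraries. Sdha and Sdhb overlap between groups, Sdhc overlaps in 1 library, and all mutant values of Sdhd (84.0 to 110 FPKM) lie below the controls (116 to 128 FPKM).

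Ratios between subunits within a library do not depend on how libraries are scaled. They were used to compare the anchors with the catalytic proteins. Sdhb over Sdha, the ratio of the catalytic pair, had a mean log2 of 0.38 ± 0.07 (SD, n = 3) in controls against 0.34 ± 0.05 (SD, n = 3) in mutants, with overlapping values. Sdhd over Sdhc, the ratio of the anchors, was 1.86 ± 0.09 and 1.73 ± 0.13, also overlapping.

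Each ratio of an anchor to a catalytic protein was lower in all 3 mutant libraries than in all 3 controls. The log2 ratio of Sdhd to Sdha was 0.52, 0.44 and 0.39 in controls, in replicate order, and -0.04, -0.07 and 0.24 in mutants. That of Sdhc to Sdha was -1.31, -1.53 and -1.41 in controls and -1.70, -1.72 and -1.64 in mutants. For Sdhd to Sdhb the separation was thin, since control replicate 3 was at -0.06 and mutant replicate 3 at -0.07. The mean of both anchors over the mean of both catalytic proteins, on the log2 scale, was -0.60, -0.69 and -0.73 in controls and -1.07, -1.06 and -0.86 in mutants. The group means differed by -0.32, and by -0.39 without mutant replicate 3. These ratios share the same 4 genes and are not separate findings, and they are given as a description, without a test. How often ratios of other gene pairs separate the groups in this way was not counted. An exact two-sided permutation test of 3 against 3 libraries could not go below p = 0.10.

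**Figure D2:**
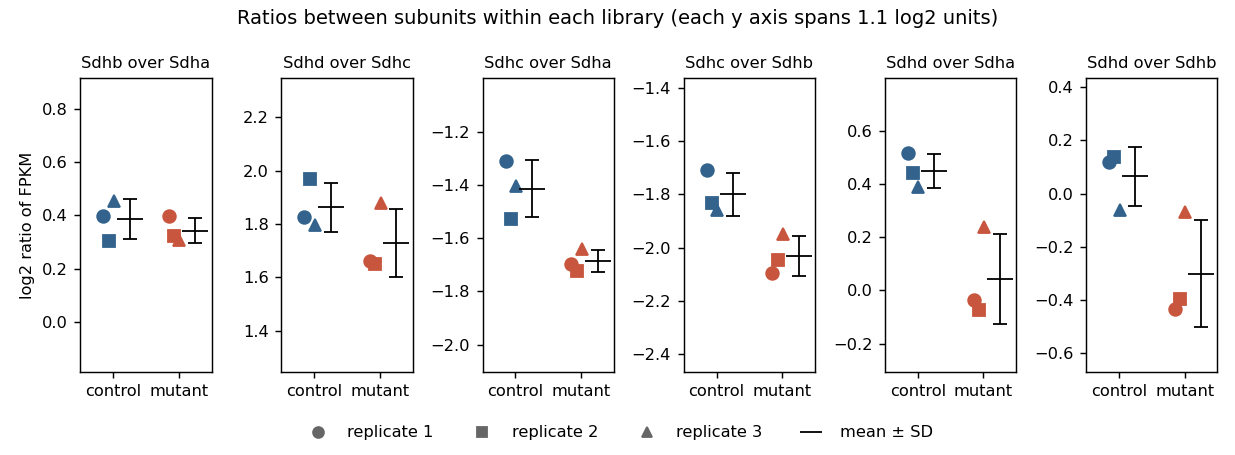
Log2 ratio of FPKM between pairs of complex II subunits within each library, with control and mutant on the x axis, marker shapes for the replicate number and a dash with bars for the mean ± SD of 3 libraries. The ratios within the catalytic pair and within the anchor pair (the first and second panels) overlap, and the other 4 are lower in every mutant library, by as little as -0.06 against -0.07 for the nearest libraries of Sdhd over Sdhb.

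The order of the levels differed between libraries. Sdhc was the lowest in all 6 libraries, at 8.56% to 9.71% of the summed FPKM of the 4 genes. In control replicates 1 and 2 Sdhd was the highest, followed by Sdhb and Sdha. In control replicate 3 and mutant replicate 3 Sdhb was the highest, followed by Sdhd and Sdha. In mutant replicates 1 and 2 Sdhb was the highest and Sdhd lay below Sdha. Sdhd took 34.4%, 34.5% and 32.3% of the 4-gene sum in controls and 27.1%, 27.1% and 31.5% in mutants. In controls Sdhd and Sdhb did not differ beyond their spread, nor did Sdhd and Sdha in mutants. By mean FPKM over the 6 libraries, Sdha, Sdhb, Sdhc and Sdhd stood above 95.7%, 96.8%, 85.3% and 96.6% of the genes tested.

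Across the 6 libraries Sdha followed Sdhb (Pearson r of log2 values 0.86) and Sdhc followed Sdhd (0.88). Sdha and Sdhd had an r of 0.10, Sdhb and Sdhd 0.19, Sdha and Sdhc 0.28, and Sdhb and Sdhc 0.52. These are descriptions over 6 points that share the same libraries and hold both groups. The genes closest to the mean of the 4 subunits among 9041 genes with a mean of at least 5 FPKM were S1pr1 (r = 0.998), Hadh (0.988), Chmp6 (0.987), Mrps31 (0.979) and Fopnl (0.972).

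Dedicated assembly factors join the cofactors and subunits of complex II. All 4 had a negative log2 fold change, against 55.0% of all genes tested, and 2 did not overlap between groups, against 13.0% of all genes in that direction. None passed the adjusted threshold. Sdhaf4, which binds the flavinated SDHA before it meets SDHB, was at 10.3, 11.8 and 11.3 FPKM in controls and at 6.94, 8.82 and 7.91 FPKM in mutants. Every mutant library was below every control, with a log2 fold change of -0.45 (SE 0.11, limma unadjusted p = 0.00254, adjusted p = 0.149), and of -0.46 without mutant replicate 3 (adjusted p = 0.129). Sdhaf2, needed to attach FAD to SDHA, was at 10.8, 11.9 and 11.0 FPKM in controls and at 9.51, 10.0 and 10.0 FPKM in mutants. These values did not overlap either, with a log2 fold change of -0.17 (SE 0.08, adjusted p = 0.372). Sdhaf1 and Sdhaf3, which act on the iron-sulfur protein, overlapped between groups, with values of -0.06 and -0.04.

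Among 3 genes whose products act on the assembled enzyme, Trap1, a mitochondrial chaperone that binds succinate dehydrogenase, was at 35.3, 33.5 and 34.1 FPKM in controls and at 41.6, 40.6 and 40.4 FPKM in mutants. All mutant values were above all controls, with a log2 fold change of 0.25 (SE 0.07, limma unadjusted p = 0.00918, adjusted p = 0.198), and the same 0.25 without mutant replicate 3 (adjusted p = 0.222). Over all genes, 5.58% were higher at an unadjusted p under 0.05, and groups did not overlap for 20.8% in either direction. Sirt5, a desuccinylase, was at 6.33, 5.25 and 5.73 FPKM in controls and 4.94, 5.17 and 4.76 FPKM in mutants (log2 fold change -0.18, adjusted p = 0.427). Its groups did not overlap either, with the mutants lower. Sirt3, a deacetylase, overlapped (log2 fold change -0.04).

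The genes that share a start region with a subunit gene were compared with it. Timm8b was at 96.2, 99.4 and 90.9 FPKM in controls and at 89.6, 86.0 and 88.6 FPKM in mutants. These groups did not overlap, as for Sdhd across the gap and for 13.0% of all genes in that direction. The lowest control, 90.9 FPKM, was close to the highest mutant, 89.6 FPKM. The log2 fold change of Timm8b was -0.12 (SE 0.08, limma adjusted p = 0.530), and a link to the Sdhd value was not tested. Ccdc127, beside Sdha, overlapped between groups (log2 fold change 0.06). Cpsf7, which encodes a factor of mRNA 3′ end processing and starts 34 bases from Sdhaf2, overlapped too (log2 fold change -0.06).

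**Figure D3:**
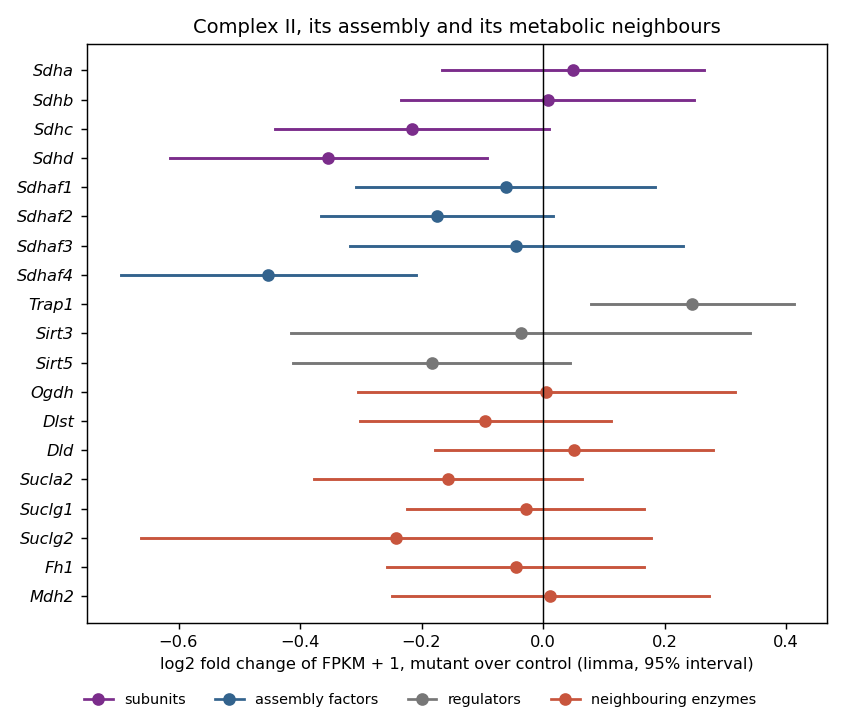
Log2 fold change of FPKM + 1, mutant over control (x axis), with its 95% interval from limma, for the subunits, assembly factors, regulators and citric acid cycle neighbours of complex II, each from 3 control and 3 mutant libraries. The intervals of Sdhd, Sdhaf4 and Trap1 lie to one side of 0 before adjustment for 13262 genes, and those of the other 16 genes include 0.

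The enzymes on either side of complex II in the citric acid cycle overlapped between groups. They make succinyl-CoA (Ogdh, Dlst, Dld), turn it into succinate (Sucla2, Suclg1, Suclg2) or use the fumarate and malate that follow (Fh1, Mdh2). By limma, 0 of 8 had an unadjusted p under 0.05, against 15.0% of all genes, and 0 of 8 had groups without overlap, against 20.8%. With 8 genes these counts are not set apart from the background. The median log2 fold change was -0.04, against -0.02 over all genes tested. Single values ran from -0.24 to 0.05. The lowest was that of Suclg2, at 12.8, 23.3 and 15.6 FPKM in controls and 13.7, 13.8 and 14.5 FPKM in mutants (SE 0.18, 95% interval -0.66 to 0.18). Control replicate 2 was the only library above 15.6 FPKM. Sucla2 had a log2 fold change of -0.16 (95% interval -0.38 to 0.06). Fh1, the fumarase that takes the product of complex II, was at 37.9, 38.6 and 44.0 FPKM in controls and 36.0, 40.8 and 39.8 FPKM in mutants. Of 7 further genes, the remaining cycle enzymes and Mdh1, 1 (14.3%) had an unadjusted p under 0.05. This was near the 15.0% of all genes in either direction, against 9.43% in the lower direction. The gene was Mdh1, which encodes the cytosolic malate dehydrogenase and not a cycle enzyme. It was at 251, 249 and 287 FPKM in controls and 183, 207 and 229 FPKM in mutants (log2 fold change -0.35, SE 0.11, adjusted p = 0.226). No remaining cycle enzyme had an unadjusted p under 0.05.

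Genes that move or make succinate by other routes were 5, of which 3 were expressed above the filter. Slc25a10, the dicarboxylate carrier, was at 8.93, 8.98 and 9.37 FPKM in controls and at 7.26, 7.42 and 10.6 FPKM in mutants. Mutant replicate 3 was above all controls and the other mutants below them. The log2 fold change was -0.12 (adjusted p = 0.740), and -0.28 without mutant replicate 3 (limma unadjusted p = 0.0190, adjusted p = 0.220). Abat and Aldh5a1, which lead from GABA to succinate, had log2 fold changes of -0.18 and -0.17 with overlapping values. The succinate receptor gene Sucnr1 was listed at 0 in 5 of the 6 libraries, and Acod1, whose product makes the inhibitor itaconate, did not exceed 0.0736 FPKM.

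Complex II shares ubiquinone with other dehydrogenases. Of 8 such genes 6 passed the filter, and 0 of 6 had an unadjusted p under 0.05 with limma, against 15.0% of all genes. Etfdh, Etfa and Etfb, the electron-transfer flavoprotein route from fatty acid oxidation, had log2 fold changes of -0.14, -0.08 and -0.13. Gpd2, the mitochondrial glycerol-3-phosphate dehydrogenase, was at 6.31, 6.48 and 6.60 FPKM in controls and 6.93, 8.29 and 7.72 FPKM in mutants. Its groups did not overlap (log2 fold change 0.21, SE 0.09, adjusted p = 0.344). Dhodh overlapped (-0.07), as did Prodh (-0.02), which was listed at 0 in control replicate 2 and mutant replicate 2.

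The cofactors of the catalytic proteins come from the iron-sulfur and FAD routes. Of 14 iron-sulfur cluster assembly genes, 11 had a positive and 3 a negative log2 fold change, with a median of 0.11. By limma 2 had an unadjusted p under 0.05, both higher in mutants (14.3%, against 5.58% of all genes in that direction and 15.0% in either), and 0 passed after adjustment. Hspa9, the mitochondrial HSP70 that also serves protein import, was at 112, 127 and 126 FPKM in controls and at 205, 226 and 145 FPKM in mutants, all above the controls (log2 fold change 0.63, SE 0.16, adjusted p = 0.162). Mutant replicate 3 was the nearest to the controls, and without it the value was 0.82 with an adjusted p of 0.00755, past the threshold, as were 2.03% of all genes in that fit. Glrx5, which carries new clusters, was at 20.3, 25.1 and 21.5 FPKM in controls and 32.5, 23.9 and 39.0 FPKM in mutants (log2 fold change 0.47, SE 0.17, adjusted p = 0.261). Without mutant replicate 3 it was 0.31, and its unadjusted p was 0.0675. The mutant libraries high in Glrx5, replicates 1 and 3, were also those high in erythroid markers, and Glrx5 overlapped the controls in replicate 2. The part of erythroid RNA in this value was not tested.

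For FAD, Slc25a32, the mitochondrial folate and FAD carrier, was listed at 0 in control replicates 2 and 3, at 1.49 FPKM in control replicate 1 and at 1.57, 1.88 and 1.74 FPKM in mutants. Rfk, which phosphorylates riboflavin, and Flad1, which completes FAD, overlapped between groups, with log2 fold changes of 0.16 and -0.0020.

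The other respiratory complexes give the setting for the 4 subunits. The median log2 fold change of complex II was -0.10, and that of 78 nuclear subunit genes of complexes I, III and IV and the ATP synthase was also -0.10. Both moved with single libraries, to -0.013 and -0.053 without control replicate 3 and to -0.17 and -0.14 without control replicate 2, so a match of this kind is loose. Among these 78, 22 (28.2%) were lower and 2 (2.56%) higher at an unadjusted p under 0.05, against 9.43% and 5.58% of all genes, and 0 passed after adjustment by limma. Of the 14 cardiomyocyte markers 64.3% were lower by the same rule, with a median of -0.33. The part of cardiomyocyte RNA in the values of the 78 genes, or of the mitochondrial DNA mRNAs below, was not tested. Without mutant replicate 3, where 2.03% of all genes had an adjusted p under 0.05, 4 of the 78 did. These were Uqcrh (-0.56), Cox7a1 (-0.66) and Atp5k (-0.55), which were lower, and Cox6a2 (1.20), a heart and muscle isoform of complex IV that was higher and is named after its value was seen. Cox6a2 was at 74.6, 74.9 and 91.2 FPKM in controls and 189, 182 and 82.0 FPKM in mutants, so mutant replicate 3 lay within the control range. Medians were -0.08 for 36 nuclear genes of complex I, -0.18 for 9 of complex III, -0.07 for 16 of complex IV and -0.14 for 17 of the ATP synthase. The 2 genes with the smallest p were Ndufb3 (-0.32) and Ndufa5 (-0.33) in complex I, Uqcrh (-0.48) and Uqcrb (-0.28) in complex III, Cox7a1 (-0.58) and Cox8b (-0.78) in complex IV, and Atp5k (-0.53) and 2010107E04Rik (-0.39) in the ATP synthase. The range of complex II, -0.35 to 0.05, lay inside that of the 78 genes, -0.78 to 0.81.

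The 13 mRNAs encoded by mitochondrial DNA, whose products complex II lacks, had a median of -0.46, with 7 (53.8%) lower and 0 higher at an unadjusted p under 0.05, against 9.43% and 5.58% of all genes, and 0 after adjustment by limma. Without mutant replicate 3 the median was -0.37, with 5 (38.5%) lower and 0 higher at an unadjusted p under 0.05, against 8.81% and 6.42% of all genes in that fit. The smallest p values were those of mt-Nd4l (-0.81, adjusted p = 0.146) and mt-Nd4 (-0.58, adjusted p = 0.170). Mutant replicate 3 had the lowest sum of the 13, 45525 FPKM, against 54986 and 63913 FPKM in mutant replicates 1 and 2 and 67134 to 71890 FPKM in controls. The library nearest to the controls in Sdhd and Mrps5 was thus the farthest from them in these mRNAs. The erythroid share of the summed FPKM was 22.0% and 23.5% in mutant replicates 3 and 1, which had the lowest sums, and 10.8% in mutant replicate 2. With erythroid genes left out of the library sums the median of the 13 mRNAs was -0.43.

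**Figure D4:**
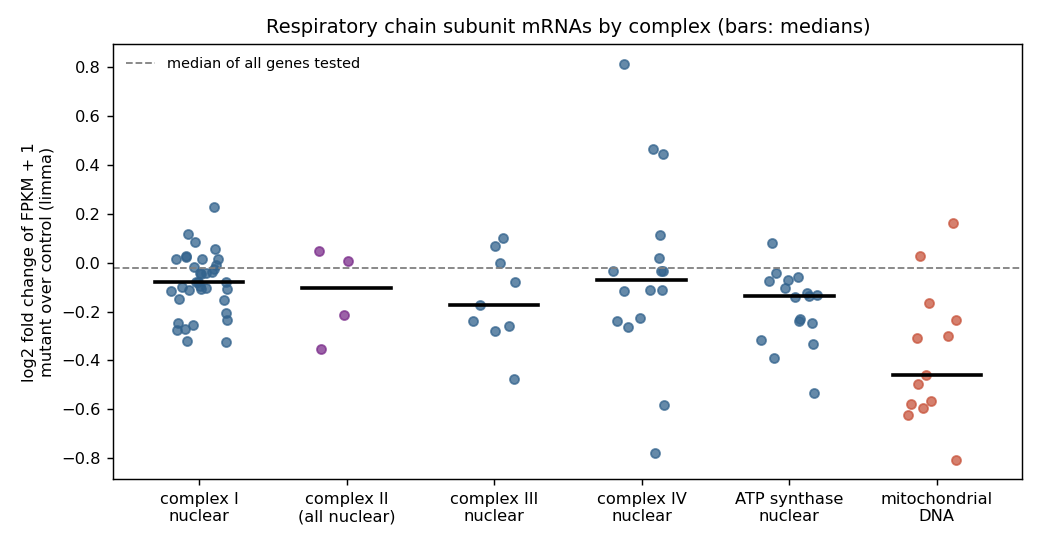
Log2 fold change of FPKM + 1, mutant over control (y axis), for each subunit mRNA of the respiratory complexes (points, spread sideways at random), with bars for medians and a dashed line for the median of all 13262 genes tested (-0.02). The 4 complex II genes lie between -0.35 and 0.05, within the spread of the other nuclear subunits, and the 13 mitochondrial DNA mRNAs have a median of -0.46.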

How the data were processed

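The authors deposited 1 table of FPKM, with a value for each of 60776 transcripts in 6 libraries. The submitters' processing notes name the build mm9 and the tools Bowtie2 2.2.8, HISAT2, StringTie 1.3.1 and Cuffdiff 2.1.1. Which of them made the table, and the annotation used, are not given in the sources used here. Groups follow the sample labels.

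Transcript values were summed by gene and 1 was added before log2, which understates the change of low genes. Genes with at least 1 FPKM in at least 3 of 6 libraries (13262) were compared with limma 3.58.1 in R 4.3.3 (moderated by the trend of the spread, two-sided), and p was adjusted by Benjamini-Hochberg over all of them. The fit was tested on simulated data. The members, gene lists and tests were chosen with earlier results of these data known. Lists are described by counts and medians, without a test. Named are the members of the short complex II lists, the 2 genes with the smallest p in each longer list, the 5 genes most like the 4 subunits, and genes starting within 1000 bases on the other strand. Of the genes that this rule names, 1 is not reported here.

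Read numbers are unknown. From shared steps of low values, depth relative to control replicate 1 was roughly 1.16 and 1.40 in controls 2 and 3 and 1.17, 1.39 and 1.61 in mutants 1, 2 and 3. Alternatives covered the value added, filters, scaling, spread, transcript choice, a replicate block and leaving out each library. Transcript names are from GENCODE M21. No other gene there shared a stretch of 31 bases with the main transcripts of Sdha, Sdhb or Sdhd, and at most 0.955% of such stretches of Sdhc-202 were shared with any 1 gene.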

Additional observations from a re-analysis of the deposited data

How the results depend on the processing

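Under all 14 alternatives Sdhc and Sdhd stayed negative and no subunit passed the adjusted threshold (lowest adjusted p 0.0607, for Sdhd, with a range of 0.0607 to 0.502). Leaving out 1 library gave Sdha -0.0069 to 0.12, Sdhb -0.048 to 0.11, Sdhc -0.29 to -0.14, Sdhd -0.47 to -0.27, Mrps5 -0.66 to -0.23 and Sdhaf3 -0.11 to 0.020. Genes whose value changed sign, among the subunits, the assembly factors and Mrps5, were Sdha without control replicate 1 (-0.0069), Sdhb without control replicate 1 (-0.043), control replicate 2 (-0.048) or mutant replicate 2 (-0.0060), and Sdhaf3 without mutant replicate 1 (0.020). The causes were not tested.

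Subunits with an unadjusted p under 0.05 numbered 1, and 2 with the most abundant transcript row or the replicate block, and 0 to 2 when 1 library was left out (0 without control replicate 3 or mutant replicate 1, 2 without control replicate 2 or mutant replicate 3). Over all genes, 1991 had an unadjusted p under 0.05, and 1314 with a mean of at least 5 FPKM, where fewer genes were tested, and 1216 to 2166 when 1 library was left out. The 11 genes past the adjusted threshold became 5 with no filter, 6 with no trend in the spread, 4 with the most abundant transcript row and 5 to 269 when 1 library was left out (119 without mutant replicate 2 and 269 without mutant replicate 3). With erythroid genes left out of the library sum the unadjusted calls split into 962 higher and 1052 lower, against 740 and 1251, and no list median named above changed sign under either scaling. When 1 library was left out, medians ran from -0.17 to -0.013 for complex II, -0.097 to -0.039 for complex I, -0.26 to -0.093 for complex III, -0.098 to -0.034 for complex IV, -0.21 to -0.10 for the ATP synthase and -0.56 to -0.37 for the mitochondrial DNA mRNAs. Some list medians near 0 did change sign under other alternatives. That of the citric acid cycle neighbours was 0.019 without control replicate 3 and 0.0093 without mutant replicate 1. That of the complex II regulators was 0.29 with the most abundant transcript row, 0.10 without control replicate 1 and 0.025 without mutant replicate 2. Without mutant replicate 3, Hspa9, Uqcrh, Cox7a1, Atp5k and Cox6a2 passed the adjusted threshold.

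Libraries with the same replicate number came from different pools. The r of their deviations from their group's mean was 0.22, 0.11 and 0.09 for replicates 1, 2 and 3, and each library correlated best with its own number, a hint from the data and not from the design. Adding the replicate block gave 2217 genes at an unadjusted p under 0.05 and 4 after adjustment. With 3 libraries a group and unknown read numbers, differences as small as those of Sdha and Sdhb were not resolved.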

Other observations

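Ubiquinone, the electron acceptor of complex II, is made by a set of mitochondrial enzymes. Coq8a, an atypical kinase of the synthesis complex, was at 1.40, 1.11 and 1.07 FPKM in controls and at 0.461, 0.459 and 0.677 FPKM in mutants. It passed the filter on low values through the controls alone, so its values are a description, with no test. Of the other 12 genes of this route, 1 had an unadjusted p under 0.05 with limma, against 15.0% of all genes, and 0 passed after adjustment. Coq7, the hydroxylase of the penultimate step, was at 28.0, 27.9 and 27.6 FPKM in controls and at 19.6, 24.6 and 25.3 FPKM in mutants (log2 fold change -0.26, SE 0.11, adjusted p = 0.303). Its groups did not overlap.

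Of 9 transcription regulators of respiratory genes, 2 had an unadjusted p under 0.05, both lower in mutants, or 22.2%, against 15.0% of all genes in either direction and 9.43% in the lower direction, and 0 passed after adjustment. Ppargc1a, the coactivator PGC-1α, was at 16.1, 15.7 and 16.0 FPKM in controls and at 12.7, 13.1 and 12.9 FPKM in mutants (log2 fold change -0.29, SE 0.08, limma adjusted p = 0.168). The spread within each group was small, and mutant replicate 3 did not stand apart from the other mutants as it did for Sdhd. Esrra, a nuclear receptor that works with PGC-1α, had a log2 fold change of -0.24 (adjusted p = 0.313), and of -0.23 without mutant replicate 3, where its unadjusted p was 0.0787. Nrf1 and Gabpa, whose products bind the letters searched for in the promoters, overlapped between groups, with log2 fold changes of -0.12 and -0.05, and of -0.21 and -0.08 without mutant replicate 3 (unadjusted p = 0.120 and 0.519 from limma). They were named after their values were seen.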
